A study of Mus musculus with 14 samples.

Results

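Adm and 9 further genes of the hypoxia-inducible factor (HIF) pathway were followed through RNA sequencing of cultured NSPCs, the neural stem and progenitor cells of the adult mouse brain, which can be held either dividing or quiescent. The genes were chosen by symbol, 10 of the 53700 genes in the deposited tables: the alpha subunits Hif1a and Epas1, the prolyl hydroxylases Egln1 and Egln3, and the targets Adm, Vegfa, Bnip3, Bnip3l, Ndrg1 and Ankrd37. They were chosen with the quiescent and proliferating libraries already analysed, where Adm had shown one of the largest falls, so their values in that comparison are a description: no p-value is given for them there, and the counts of calls come from the fit over all genes. The rule uses no value of the comparison after virus, so that comparison is given with its test, although earlier results of these data were known.

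The series holds 14 poly-A selected libraries from C57BL/6 NSPCs, quantified by the authors in 2 separate tables. In the first table, 4 libraries came from cells treated with BMP4 (quiescent) and 4 from cells given FGF and EGF (proliferating). In the second, 3 libraries came from cells given an adeno-associated virus for Cre-GFP (the Yme1l KO group) and 3 from cells given a GFP virus (the GFP control group), all kept in FGF and EGF. Yme1l1 encodes a protease of the inner mitochondrial membrane. The labels call the mouse wild-type in all 4 groups and name no floxed allele, and they do not say whether the libraries of a group came from separate animals or cultures, so p-values may measure technical spread. Yme1l1 itself was at 24.7 ± 1.61 CPM (counts per 1000000 counts of the library; SD, n = 3) in the KO libraries against 127 ± 7.49 (SD, n = 3) in the controls, a log2 fold change of -2.36 (adjusted p = 5.89e-11). Total estimated counts ran from 6475099 to 10320736 per library. All 10 markers fixed for neural stem and progenitor cells were detected. Their summed level was 3266 to 4040 CPM in quiescent and 2310 to 2490 CPM in proliferating libraries, and 3910 to 4155 CPM in KO and 4508 to 4599 CPM in control libraries. Of the 9 markers tested, 4 rose and 5 fell in quiescent cells, with Gfap at a log2 fold change of 2.78 (adjusted p = 1.96e-09), Nes at -1.15 (adjusted p = 0.000258) and Egfr at -1.77 (adjusted p = 5e-11), and 5 fell in KO cells; the part of this in the members' values was not tested. RNA was taken from whole cultures, in which fewer cells of a type and less RNA per cell cannot be told apart.

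As background, HIF is a transcription factor made of an oxygen-regulated alpha subunit and the constant subunit ARNT. With oxygen present, EGLN prolyl hydroxylases mark the alpha subunit for the VHL ubiquitin ligase and it is degraded; at low oxygen it persists, enters the nucleus and switches on genes for vessel growth, glycolysis and mitochondrial turnover. This control acts on the protein, and the values below are of RNA alone.

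Promoter sequences are shown for 3 targets whose RNA took different courses, to let the letters be compared with the values: Adm, which was nearly lost in quiescent cells, and Vegfa and Bnip3, which were higher there. HIF binds the core ACGTG or GCGTG, here searched on either strand, so that CACGT and CACGC also count. Each sequence is the 250 bases before the RefSeq start on GRCm38.p6, read along the gene's strand, with matches in capitals: Adm at chr7:110627407-110627656 (plus strand), Vegfa at chr17:46032378-46032627 (minus strand) and Bnip3 at chr7:138909507-138909756 (minus strand).
Adm: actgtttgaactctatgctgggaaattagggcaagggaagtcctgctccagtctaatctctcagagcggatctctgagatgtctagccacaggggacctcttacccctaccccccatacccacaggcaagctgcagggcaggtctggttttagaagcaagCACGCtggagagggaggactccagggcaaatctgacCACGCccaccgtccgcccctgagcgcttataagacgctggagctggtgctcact
Vegfa: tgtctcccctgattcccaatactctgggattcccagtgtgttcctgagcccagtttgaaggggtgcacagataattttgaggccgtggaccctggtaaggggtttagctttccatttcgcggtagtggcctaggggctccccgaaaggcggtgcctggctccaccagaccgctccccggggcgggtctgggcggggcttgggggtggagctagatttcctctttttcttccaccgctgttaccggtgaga
Bnip3: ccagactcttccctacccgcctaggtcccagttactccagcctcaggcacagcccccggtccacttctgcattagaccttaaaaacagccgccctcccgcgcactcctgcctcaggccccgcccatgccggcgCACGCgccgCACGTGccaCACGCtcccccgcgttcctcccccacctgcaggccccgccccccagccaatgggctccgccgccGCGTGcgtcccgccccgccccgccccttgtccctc

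The Adm window held 2 matches, both CACGC, at 90 and 54 bases before the start. Bnip3 held 5 matches, of which CACGT at 108 and ACGTG at 107 bases before the start overlap as a palindrome. Vegfa held no match in this window, which says only that the letters are not in these 250 bases. RefSeq promoters were matched for 7 of the 10 members; Epas1, Bnip3l and Ndrg1 had none. In the window of the most upstream start, 6 of these 7 members held a match (all but Vegfa), and 38.6% of 32851 promoters did. ACGTG alone was present in 5 of the 7 and in 16.6% of all promoters. Vegfa also has a second RefSeq start inside the gene, and the 250 bases before it held a GCGTG at 218 and a CACGT at 211, so that with this window all 7 members held a match and 6 held ACGTG. Hif1a and Ankrd37 also carried several matches, Egln1 carried a GCGTG at 126 and an ACGTG at 68 bases before the start, and Egln3 carried a single ACGTG at 229. A match is a run of letters and not a measured binding site.

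In quiescent cells the alpha subunits, 1 hydroxylase and all the measured targets except Adm were higher than in proliferating cells, while Adm and Egln1 were lower. Of the 10 members, 9 passed the count filter, and all 9 were called at an adjusted p under 0.05, with 7 higher and 2 lower. Among the 12245 genes tested, 65.4% were called, 29.9% higher and 35.5% lower, and since the members were chosen with this comparison in view nothing is read from their count. The median log2 fold change of the 9 members was 0.81, against -0.01 for all genes tested.

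**Figure D1:**
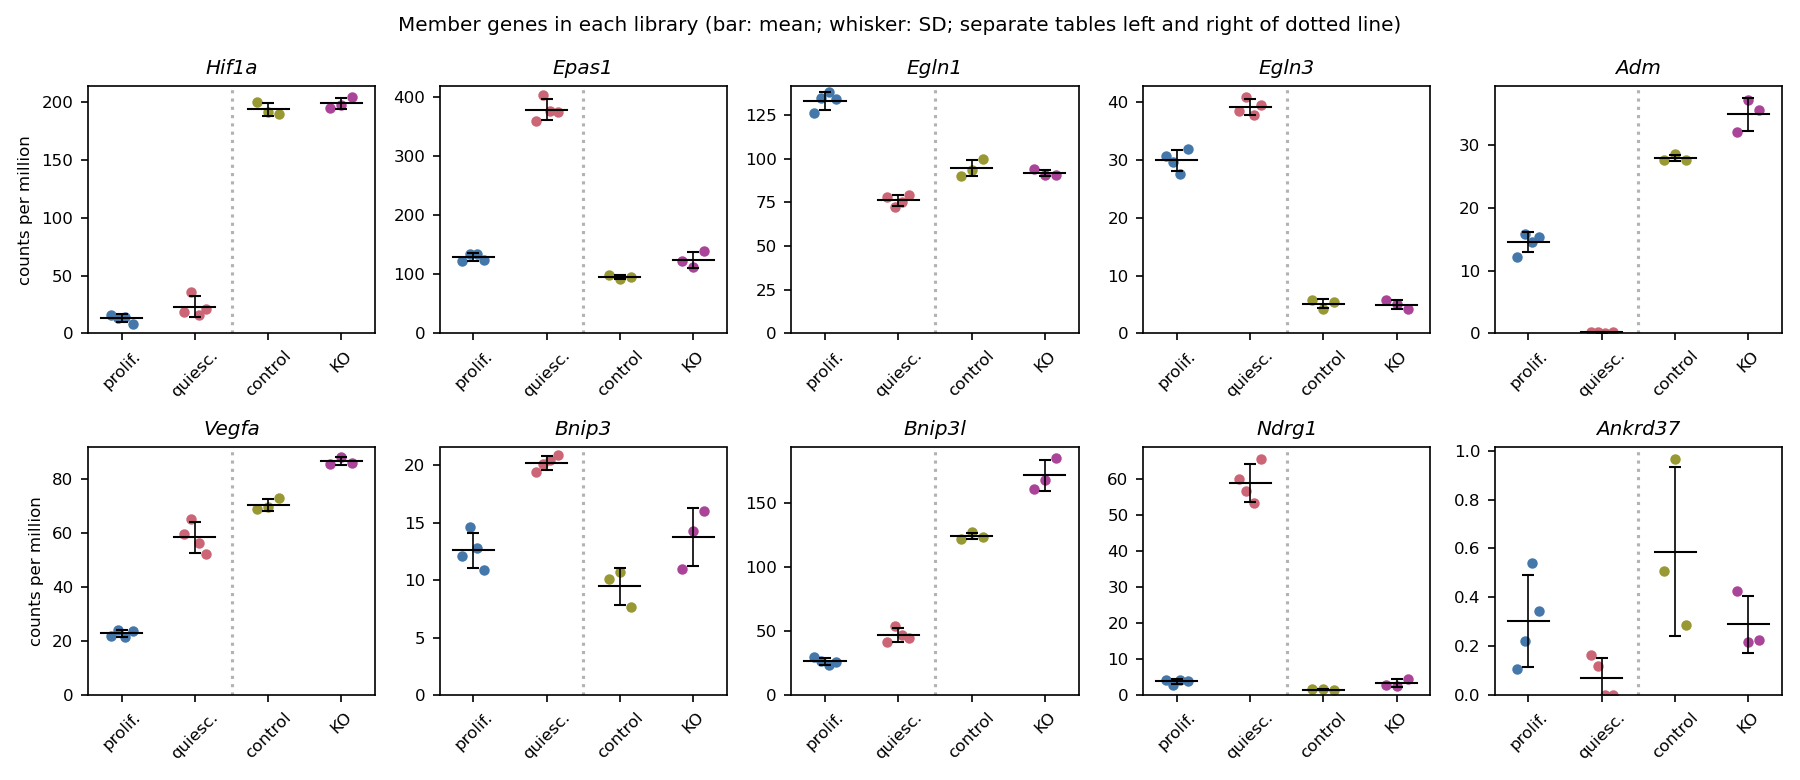
CPM (vertical axes, linear from 0) of the 10 members in each library, with the group mean as a bar and the SD as a whisker; the dotted line parts the 2 separately quantified tables. Adm lay between 12.2 and 15.8 in the proliferating libraries and at or below 0.279 in the quiescent ones, and Ndrg1 lay between 53.2 and 65.4 in the quiescent libraries and at or below 4.23 in the proliferating ones.

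Adm (ENSMUSG00000030790, chr7:110226868-110229027 on GRCm39, plus strand) encodes adrenomedullin, a secreted peptide that dilates vessels and is a classical HIF target. Its level was 12.2, 15.8, 14.6 and 15.4 CPM in proliferating replicates 1, 2, 4 and 5 and 0.162, 0.234, 0 and 0.279 CPM in quiescent replicates 1 to 4. Those quiescent levels rest on 1, 2, 0 and 2 counts, 5 in all, against 528 in the proliferating libraries. The groups did not overlap, and the quiescent libraries were all below the level of 3 counts that marks the floor of detection. With both totals scaled to effective library size, the proliferating level was 81.2 times the quiescent one, with an exact 95% interval of 34.6 to 251 that covers counting error only. The fitted log2 fold change was -6.23 (SE 0.31, derived from the test statistic). A fit with DESeq2 gave -6.31 with a larger SE of 0.68, so 0.31 is not read as the precision of this fold.

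Vegfa (ENSMUSG00000023951, chr17:46327919-46343295 on GRCm39, minus strand), the vascular endothelial growth factor gene, moved opposite to Adm although both are secreted HIF targets. It stood at 21.7, 24.1, 21.5 and 23.8 CPM in the proliferating libraries and 59.8, 65.3, 56.3 and 52.1 CPM in the quiescent ones. The ranges were well apart, with a log2 fold change of 1.36 (SE 0.08).

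The alpha subunits differed in how firmly their difference was set. Epas1, which encodes HIF-2 alpha, was at 123, 135, 135 and 124 CPM in the proliferating libraries and 360, 403, 376 and 374 CPM in the quiescent libraries, a log2 fold change of 1.55 (SE 0.05) with no overlap. Hif1a, which encodes HIF-1 alpha, was at 16.0, 13.5, 14.5 and 8.38 CPM in the proliferating libraries and 18.8, 36.1, 15.8 and 20.7 CPM in the quiescent libraries. Its groups overlapped, because quiescent replicate 3 lay below proliferating replicate 1, and it was the only called member for which they did. The share of all genes tested with separate ranges was not computed, so nothing is read from how many members had them. The log2 fold change of Hif1a was 0.81 (SE 0.30). It was 0.57 (SE 0.18) without quiescent replicate 2, and Hif1a was no longer among the called genes without proliferating replicate 2 (0.82), 4 (0.86) or 5 (0.65), without quiescent replicate 4 (0.91), with no filter (0.80) and with library size alone as scaling (0.68).

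Hif1a has an AT-rich transcript, 41.3% GC, and so have Bnip3 (41.6%) and Bnip3l (41.9%), while the other members have 50.7 to 56.0%. In quiescent replicate 2, the library with the most Hif1a, 996 genes under 42% GC lay a median of 0.42 (log2) above their mean over the quiescent libraries. In the other quiescent libraries this median lay between -0.13 and -0.08. In the proliferating libraries, against their own group mean, it lay between -0.13 and 0.18. Centred by group, these values show spread within a group and no difference between the groups. With the GC trend of each library removed, a setting added after these values were seen, Hif1a was at 0.52, Bnip3 at 0.43 and Bnip3l at 0.59.

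The prolyl hydroxylases parted. Egln1, the main oxygen sensor in most cells, was at 126, 135, 138 and 134 CPM in the proliferating libraries and 77.9, 72.5, 75.0 and 79.5 CPM in the quiescent libraries, a log2 fold change of -0.81 (SE 0.05). Egln3, a hydroxylase gene that HIF itself induces, was at 30.7, 29.7, 27.6 and 31.9 CPM against 38.5, 41.0, 37.8 and 39.6 CPM, a log2 fold change of 0.39 (SE 0.07). Neither gene's groups overlapped. In TPM, the deposited level per transcript length, Egln1 was at 3.24 ± 0.293 (SD, n = 4) times the level of Egln3 in proliferating cells and 1.41 ± 0.0868 (SD, n = 4) times in quiescent cells.

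Bnip3 and Bnip3l encode related receptors on the outer mitochondrial membrane that pass mitochondria to autophagy. Bnip3 was at 12.1, 14.6, 12.8 and 10.9 CPM in the proliferating libraries and 19.4, 20.1, 20.5 and 20.9 CPM in the quiescent ones, a log2 fold change of 0.68 (SE 0.11). Bnip3l was at 29.3, 26.5, 23.3 and 25.4 CPM and at 41.5, 53.7, 46.9 and 44.8 CPM, a log2 fold change of 0.84 (SE 0.09). Both had quiescent libraries entirely above the proliferating ones.

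Ndrg1 encodes a cytoplasmic protein induced by hypoxia and by differentiation. It was at 4.01, 2.87, 4.23 and 3.79 CPM in the proliferating libraries and 60.0, 56.6, 53.2 and 65.4 CPM in the quiescent ones. That was a log2 fold change of 3.97 (SE 0.12), or 15.7-fold, the farthest rise in level among the members. Ankrd37, an ankyrin repeat gene listed among HIF targets, had 11 counts in the 4 proliferating and 2 in the 4 quiescent libraries, at most 0.542 CPM, and was too low to be compared.

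**Figure D2:**
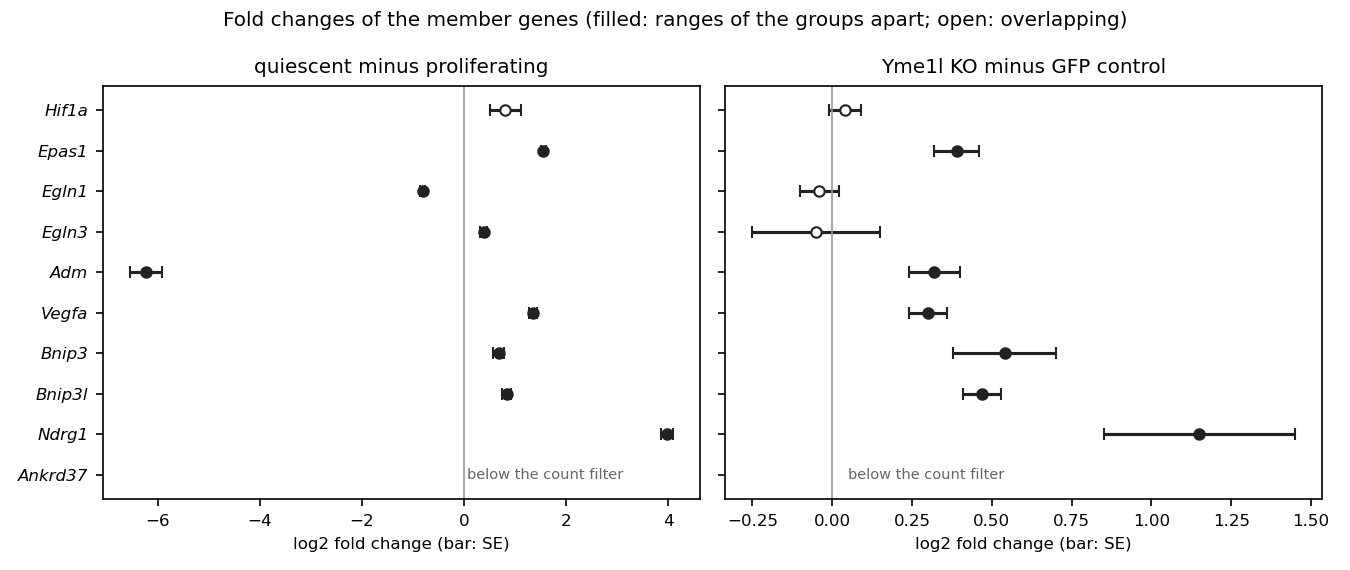
Log2 fold changes (horizontal axes, separate scales; bars are SE) of the members in each comparison, filled where the groups' ranges did not overlap and open where they did. Adm lies at -6.23 on the left and 0.32 on the right, and Ndrg1 at 3.97 and 1.15. The SE is derived from the test statistic, and for Adm on the left DESeq2 gave a larger SE of 0.68. Ankrd37 was below the count filter.

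The order of the members per length changed with the culture state. In proliferating cells Egln1 led at 64.7 ± 1.79 TPM (SD, n = 4), followed by Bnip3l at 47.4 ± 8.51 and Epas1 at 40.2 ± 1.60, whose ranges overlapped. Adm, Egln3, Vegfa and Bnip3 came next at 20.1, 20.0, 18.5 and 18.0 TPM, with each range overlapping the next. Hif1a was at 4.87 ± 1.28 TPM. In quiescent cells Epas1 led at 119 ± 8.91 TPM (SD, n = 4), Bnip3l, Vegfa, Ndrg1 and Egln1 followed at 71.5, 44.2, 38.5 and 37.4 TPM with each range overlapping the next, and Adm was last at 0.234 ± 0.171 TPM. The Epas1 level was 8.78 ± 2.68 times that of Hif1a in proliferating and 15.1 ± 4.43 times in quiescent cells (SD, n = 4), with overlapping ranges.

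After Cre-GFP virus, all 6 members that passed the test rose, and Adm was among them. Of the 9 members tested, 6 rose, 0 fell and 3 did not pass (Hif1a, Egln1 and Egln3). In this comparison 51.6% of 12625 genes were called, 25.4% higher and 26.2% lower. The members' median log2 fold change was 0.32, against 0 for all genes tested. Every one of the 6 had all 3 KO libraries above all 3 control libraries. The share of all genes tested with such separate ranges was not computed, so nothing is read from this count.

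Adm was at 32.0, 37.1 and 35.6 CPM in the KO libraries and 27.6, 28.5 and 27.6 CPM in the controls, with the KO values higher and more spread. It rose by a log2 fold change of 0.32 (SE 0.08, adjusted p = 0.00442). Vegfa was at 85.6, 88.4 and 85.9 CPM against 68.9, 69.7 and 73.0 CPM, and rose by 0.30 (SE 0.06, adjusted p = 0.000481). Per length, the Vegfa level was 1.52 ± 0.169 times that of Adm in the KO cells and 1.52 ± 0.0627 times in the controls (SD, n = 3). In the first table this ratio was 0.918 ± 0.079 (SD, n = 4) in proliferating cells.

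Of the alpha subunits, Epas1 rose and Hif1a did not pass the test. Epas1 was at 122, 113 and 139 CPM in the KO libraries against 98.2, 92.6 and 94.7 CPM in the controls, a log2 fold change of 0.39 (SE 0.07, adjusted p = 0.000331). Hif1a was at 195, 197 and 204 CPM against 200, 191 and 190 CPM, with overlapping ranges and a log2 fold change of 0.04 (SE 0.05, adjusted p = 0.523). Whether the changes of these subunits differ from each other was not tested. Per length, Epas1 was at 0.511 ± 0.0522 times the level of Hif1a in KO cells and at 0.402 ± 0.0117 times in control cells (SD, n = 3), with the KO ratios from 0.456 to 0.56 and the control ratios from 0.388 to 0.411.

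Neither hydroxylase gene passed. Egln1 was at 93.9, 90.9 and 90.6 CPM against 90.3, 93.8 and 99.6 CPM, a log2 fold change of -0.04 (SE 0.06, adjusted p = 0.548). Egln3 was at 5.74, 5.05 and 4.19 CPM against 5.80, 4.29 and 5.36 CPM, a log2 fold change of -0.05 (SE 0.20, adjusted p = 0.863). The larger error of Egln3 goes with its 37 to 57 counts per library. The size of change that could be detected at such counts was not computed.

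The mitochondrial receptors both rose. Bnip3l was at 161, 168 and 185 CPM against 122, 127 and 123 CPM, a log2 fold change of 0.47 (SE 0.06, adjusted p = 1.51e-05). Bnip3 was at 11.0, 14.3 and 16.0 CPM against 10.1, 10.7 and 7.66 CPM, a log2 fold change of 0.54 (SE 0.16, adjusted p = 0.0121), with KO replicate 1 just above control replicate 2. The Bnip3 call was lost without GFP control replicate 3 (0.40, adjusted p = 0.0761) and in limma fits on TPM (adjusted p = 0.16 and 0.162).

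Ndrg1 was at 2.87, 2.58 and 4.53 CPM in the KO libraries and 1.53, 1.61 and 1.34 CPM in the controls, with KO replicate 3 the highest. It rose 2.21-fold (log2 fold change 1.15, SE 0.30, adjusted p = 0.00475), from 44 counts in the controls to 91 in the KO libraries. Each control library held only 14 to 15 counts, and over the 16 alternatives the log2 fold change ran from 0.66 to 1.3. Ankrd37 had 8 counts in the KO libraries and 17 in the controls and was not tested. In the authors' deposited table the 9 tested members had the same sign as here in both comparisons. In the KO comparison 5 of them had an adjusted p under 0.05 there. Ndrg1 was at a smaller log2 fold change of 0.64 (adjusted p = 0.0489), and Bnip3 was at 0.29 (adjusted p = 0.188).

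Per length, Bnip3l led in both virus groups, at 215 ± 11.6 TPM in KO and 150 ± 24.1 TPM in control cells (SD, n = 3). Hif1a came second at 80.4 ± 1.85 and 77.8 ± 2.57 TPM, with Vegfa next at 79.6 ± 3.67 and 62.7 ± 1.40 TPM. In KO cells the ranges of Hif1a and Vegfa overlapped, and in control cells they did not. Adm and Egln1 changed places: Adm was at 52.7 and Egln1 at 47.3 TPM in KO cells, with overlapping ranges, and Adm was at 41.3 and Egln1 at 48.6 TPM in the controls, with separate ranges.

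No result is read from differences in level between the tables. Proliferating and GFP control cells were both kept in FGF and EGF, yet the mean Hif1a level was 14.8 times higher in the controls, Bnip3l 4.74 times and Vegfa 3.1 times, and Egln3 was 5.82 times higher in the proliferating cells. The median log2 difference, control minus proliferating, was 2.84 over 985 genes under 42% GC and -0.77 over 4749 genes above 52% GC, against -0.07 over all 11477 genes tested in both. Hif1a, Bnip3l and Bnip3 belong to the AT-rich genes. Of these, Hif1a and Bnip3l were higher in the controls, and Bnip3 (41.6% GC) was 1.33 times higher in the proliferating cells. Vegfa (50.9% GC) and Egln3 (51.4% GC) lie between these bins and differed in opposite directions. Virus and table cannot be told apart here, and the part of base composition in any member's gap was not tested. Within each group of the second table the medians of the AT-rich genes stayed within 0.03 of the group's own mean in every library. Centred by group, these values cannot show a difference between KO and control cells.

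Transcripts were followed because Vegfa is known for splice forms that differ in heparin binding. In the first table Vegfa-202 took 56.7, 48.8, 24.3 and 65.1% of all estimated Vegfa counts in the proliferating libraries and 89.4, 73.2, 68.2 and 65.2% in the quiescent ones. Every quiescent share was above every proliferating one, by a small margin between quiescent replicate 4 and proliferating replicate 5. Vegfa-201 held 39.0 ± 13.2% and 15.4 ± 10.8% (SD, n = 4), with no count in quiescent replicate 1. After virus the shares of Vegfa-202 were 53.1 ± 0.275% in KO and 51.8 ± 1.98% in control cells (SD, n = 3), with overlapping ranges, and those of Vegfa-201 were 34.1 ± 1.12% and 36.3 ± 1.02%. Short-read shares are estimates, and by TPM the mean Vegfa-202 share was 50.0% in quiescent, 31.5% in proliferating, 31.1% in KO and 31.3% in control cells.

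Vegfa-202 and Vegfa-201 differ in where the first exon starts and in a coding exon of 132 bases that Vegfa-201 lacks. That exon lies at chr17:46020991-46021122 on GRCm38, minus strand, in the part of the gene known to encode heparin-binding residues. It is shown because it is among the differences between the transcripts whose shares are given above. Their coding lengths are 1104 bases (Vegfa-202) and 438 bases (Vegfa-201), so the coding sequence also differs outside this exon. Which difference the estimated shares rest on was not tested.
Vegfa exon: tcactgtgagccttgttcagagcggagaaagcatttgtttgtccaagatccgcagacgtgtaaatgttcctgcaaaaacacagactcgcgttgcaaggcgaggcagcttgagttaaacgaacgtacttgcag

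**Figure D3:**
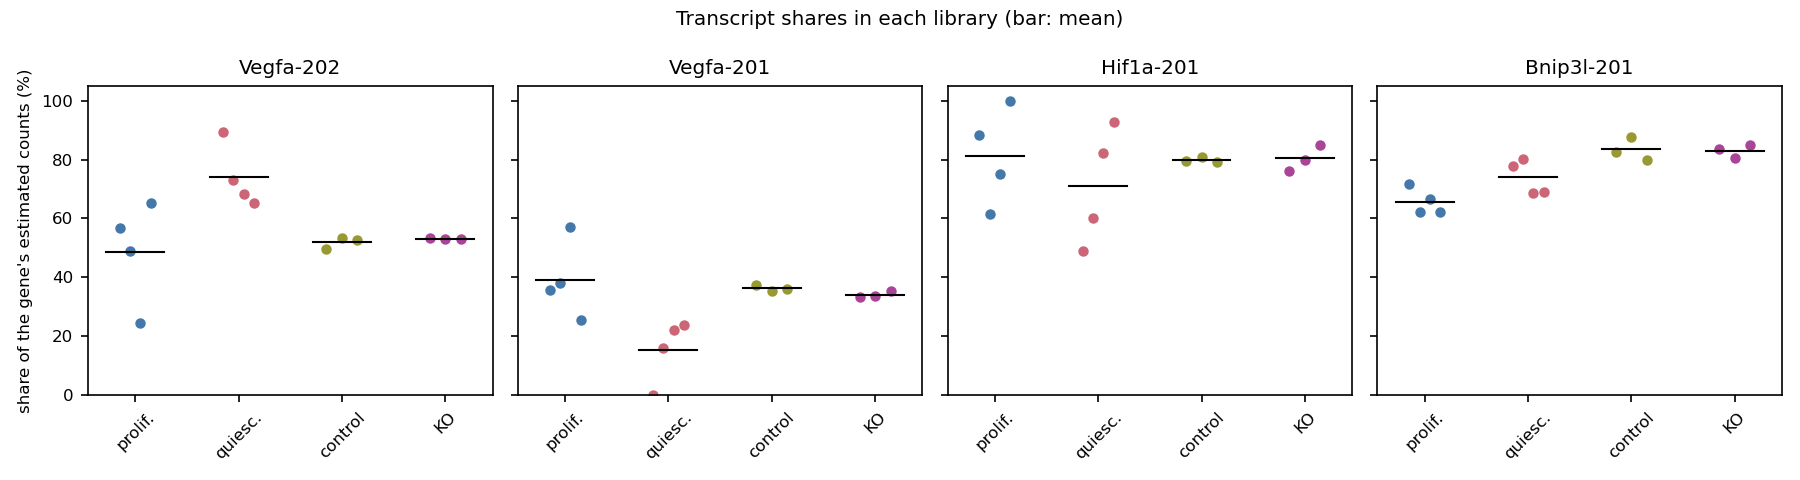
Share of estimated counts of the gene held by 4 transcripts (vertical axis, percent, from 0) in each library, with the group mean as a bar. Vegfa-202 shares lie at 65.2% or above in the quiescent libraries, and Hif1a-201 shares spread from 49.0 to 100% in the first table.

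The other members showed less change of transcript. Adm-201 held 98.5 to 100% of the Adm counts in every library that had any. Epas1 had all its counts in 1 of the 2 transcripts counted for it. Egln1 and Egln3 had only 1 transcript counted each, so their shares could not change. Hif1a-201 held 81.2 ± 16.7% in proliferating and 71.0 ± 20.0% in quiescent cells (SD, n = 4), and 80.4 ± 4.47% in KO and 80.0 ± 0.857% in control cells (SD, n = 3). The wide spread in the first table goes with its 73 to 309 Hif1a counts per library, against 1785 to 1981 in the second. Bnip3l-201 held 65.7 ± 4.58% in proliferating and 73.9 ± 5.88% in quiescent cells (SD, n = 4), with overlapping ranges.

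Other genes of the pathway were counted by list. These lists were chosen with earlier results known, and genes of the longer ones were named by the size of their fold change. The adjusted p-values of listed genes are therefore descriptive. Counts and medians stand beside those of all genes tested. There 29.9% rose and 35.5% fell in quiescent cells, with a median log2 fold change of -0.01. After Cre-GFP virus 25.4% rose and 26.2% fell, with a median of 0. Among 17 tested genes of the HIF complex and oxygen sensing, 4 rose and 9 fell in quiescent cells, with a median log2 fold change of -0.20. Cited2 rose by 2.10 (adjusted p = 1.14e-10); its protein competes with HIF-1 alpha for a coactivator. Cited4, counted among the 4, was at 2.35 ± 0.358 CPM in quiescent and 0.272 ± 0.28 CPM in proliferating cells (SD, n = 4), where the mean is below the level of 3 counts (0.316 to 0.344 CPM), so it passed the filter through the quiescent libraries and no fold is given. Siah2, a ubiquitin ligase that degrades EGLN proteins, fell by 0.87 on the log2 scale (adjusted p = 6.64e-06). After Cre-GFP virus 5 of 16 rose and 4 fell, with a median of 0.03; Cited2 (0.72, adjusted p = 0.00175) and the ARNT relative Arnt2 (0.49, adjusted p = 2.91e-06) rose, and Siah2 fell by 0.62 (adjusted p = 0.000239).

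Of 5 tested genes that process or receive adrenomedullin, 4 rose and 0 fell in quiescent cells, with a median of 0.90. Pam, the enzyme that amidates the peptide, rose by 0.72 (adjusted p = 2e-08). Ramp2, the receptor's partner, rose by 0.90 (adjusted p = 8.52e-05), and the scavenging receptor gene Ackr3 by 1.53 (adjusted p = 1.48e-10). Calcrl, the receptor itself, passed with 1.27 (SE 0.47, adjusted p = 0.033), but its call was lost in 8 of 19 alternatives (0.56 to 1.34, adjusted p = 0.0553 to 0.24): library size alone, both limma fits, the replicate block, and without proliferating replicate 2 or 5 or quiescent replicate 1 or 2. Ramp1 had a log2 fold change of 0.36 (adjusted p = 0.217). After Cre-GFP virus 2 of 4 rose and 1 fell: Pam rose by 0.64 (adjusted p = 3.16e-06), Calcrl by 0.53 (adjusted p = 0.000518), and Ackr3 fell by 0.67 (adjusted p = 0.0012), with Ramp2 at -0.56 (adjusted p = 0.0537).

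Of 8 VEGF ligands and receptors tested in quiescent cells, 5 rose and 0 fell, with a median of 1.07. Of the receptors, 3 passed and both others did not, Flt1 at -0.20 (adjusted p = 0.475) and Nrp2 at -0.40 (adjusted p = 0.173). Kdr went from 2.32 to 11.3 CPM (log2 fold change 2.29, adjusted p = 1.71e-07), Nrp1 from 2.78 to 12.4 CPM (2.16, adjusted p = 1.29e-06) and Flt4 from 0.895 to 2.67 CPM (1.56, adjusted p = 0.00231). Vessel markers summed to 0.163 to 1.62 CPM in the quiescent and 0.918 to 1.66 CPM in the proliferating libraries, with 3 of 8 (Cldn5, Emcn and Pdgfrb) at 0. After Cre-GFP virus 2 of 6 rose, with a median of 0.30: Nrp1 (0.49, adjusted p = 0.000229) and Vegfb (0.29, adjusted p = 0.00451), which did not pass (0.16, adjusted p = 0.0607) once each library's GC trend was taken out. There the vessel markers summed to 11.8 to 14.3 CPM in KO and 6.97 to 7.84 CPM in control libraries, with Cldn5 and Pdgfrb at 0, and the receptor gene Tek rose by 0.86 (adjusted p = 0.000276); their part in the changes of Adm, Vegfa and Nrp1 was not tested. Of the 8 microglia markers, 4 (Cx3cr1, Aif1, C1qa and Ptprc) were at 0 in all libraries of that table.

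Of the glycolytic HIF targets, 12 of 19 rose and 3 fell in quiescent cells, with a median of 0.24: Pfkp (0.89, adjusted p = 0.000697) and Aldoc (0.83, adjusted p = 5.76e-11) rose, and the hexokinase gene Hk2 fell by 1.17 (adjusted p = 0.000109). After Cre-GFP virus 10 of 18 rose and 5 fell, with a median of 0.26. Pdk1, a kinase that keeps pyruvate from the mitochondria, rose by 0.84 (adjusted p = 6.25e-05; 0.0582 and 0.06 in the limma fits on TPM), while Hk2 fell by 1.21 (adjusted p = 6.74e-06) and Aldoc by 0.90 (adjusted p = 1.68e-07).

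Of 24 other HIF targets tested in quiescent cells, 14 rose and 6 fell, with a median of 0.32. The transcriptional repressor Bhlhe41 rose by 1.96 (adjusted p = 2.64e-11) and Nampt by 1.46 (adjusted p = 0.00022), and the collagen crosslinking enzyme Loxl2 fell by 1.52 (adjusted p = 0.000439). After Cre-GFP virus 11 of 23 rose and 6 fell, with a median of 0.21; Rora (1.15, adjusted p = 6.89e-07), Bhlhe41 (1.13, adjusted p = 3.57e-06) and the collagen lysyl hydroxylase Plod1 (1.02, adjusted p = 5.84e-06) rose.

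Of the mitophagy receptors and adaptors other than Bnip3 and Bnip3l, 9 of 16 rose, 1 fell and 6 did not pass in quiescent cells, with a median of 0.58: Map1lc3a rose by 0.85 (adjusted p = 1.49e-08), and Phb2 fell by 0.86 (adjusted p = 1e-09). After Cre-GFP virus 12 of 16 rose and 1 fell, with a median of 0.44: the kinase Pink1 rose by 1.02 (adjusted p = 0.00498) and Gabarapl1 by 0.88 (adjusted p = 0.000114). The relatives of Ndrg1 rose as well: in quiescent cells Ndrg4 by 1.59 (adjusted p = 4.09e-11), Ndrg3 by 0.55 (adjusted p = 9.8e-08) and Ndrg2 by 0.32 (adjusted p = 2.8e-05), and after Cre-GFP virus Ndrg3 by 0.67 (adjusted p = 8.09e-06) and Ndrg4 by 0.47 (adjusted p = 0.000214).

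**Figure D4:**
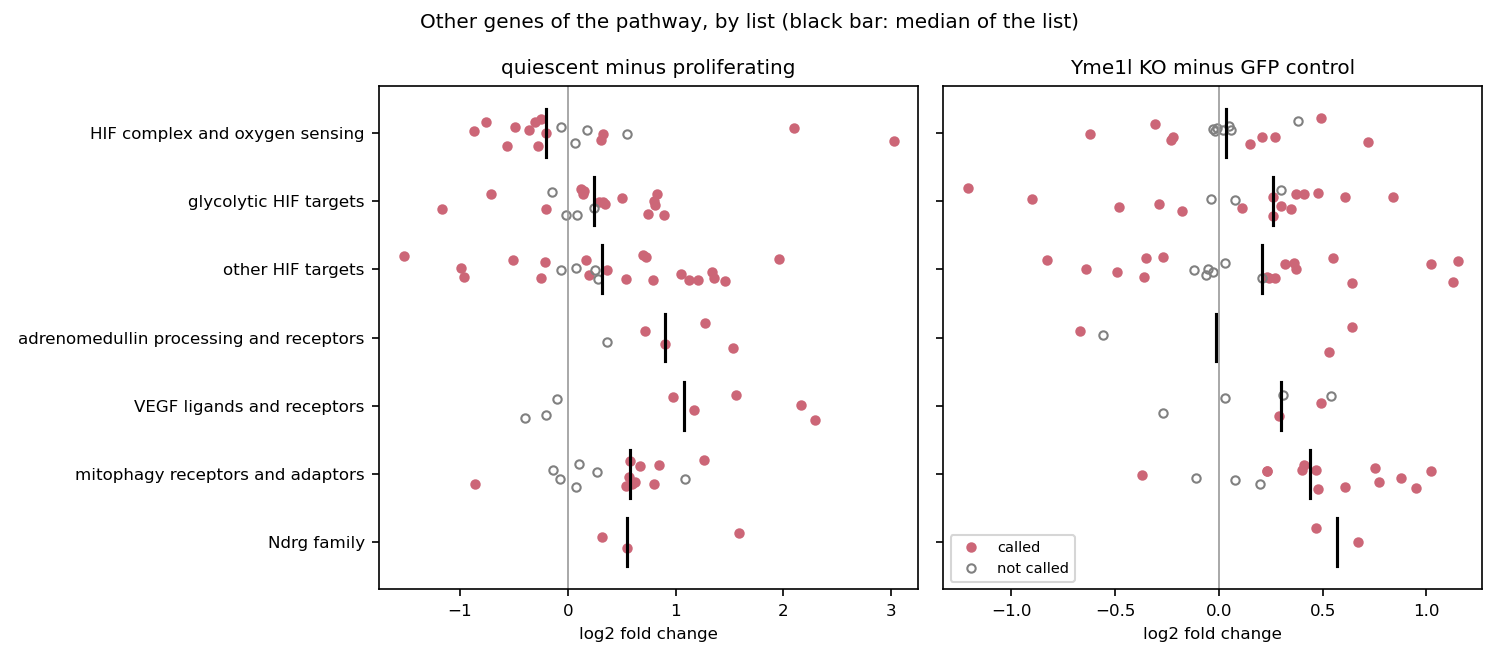
Log2 fold changes (horizontal axes, separate scales) of the other pathway genes, 1 point a gene, filled where called at an adjusted p under 0.05, with each list's median as a black bar. The medians run from -0.20 for the HIF complex to 1.07 for VEGF ligands and receptors in the quiescent comparison, and from -0.02 to 0.57 after Cre-GFP virus.

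The genes whose levels most resembled Adm were searched among 8949 genes, by the mean of Pearson's r of log2(CPM + 1) over the 8 libraries of the first table and over the 6 of the second. Ccnd1, the cyclin D1 gene, was closest with r of 0.998 and 0.984, and it stood at 2356 CPM in proliferating, 322 in quiescent, 2026 in control and 2244 in KO cells. Zkscan17, Wnt7b, Arl4c and Camk2b followed with mean r of 0.985, 0.979, 0.978 and 0.975. The libraries of a table form 2 groups, so r mostly reflects the gap between them, and on the log2(TPM + 1) scale 2 of these 5 remained. Among the members, Egln1 had an r of 0.99 with Adm in the first table and -0.52 in the second, and Vegfa had -0.98 and 0.93.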

How the data were processed

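RNA of 14 NSPC libraries (poly-A selected, stranded kit, per the labels) was quantified by the authors with salmon, per the deposited file names, as estimated counts and TPM per gene and transcript. The submitters' processing notes name GRCm39, R 4.0.3 and DESeq2 1.30.1; reads were paired-end and reverse stranded per the deposited library sheet. The authors' deposited comparison tables hold log2 fold changes and p-values. The table deposited as length-scaled held the same values as the gene counts, to within 0.0554.

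From the deposited estimated counts, rounded to whole numbers, genes were filtered (filterByExpr), scaled (TMM) and tested with edgeR 4.0.16 in R 4.3.3 (robust quasi-likelihood, Benjamini-Hochberg over all genes tested, called under 0.05), within each table only. CPM use effective library sizes. Each SE is the absolute log2 fold change divided by the square root of the edgeR F statistic. Alternatives used DESeq2 1.42.0, limma 3.58.1 on log2(TPM + 1) or log2(TPM + 0.1), other scalings and filters, and omission of each library. Data were simulated from these libraries with 100 genes changed at each fold. In the quiescent comparison 80% of 2-fold and 57% of 1.5-fold changes were recovered (10.5% of calls false). In the KO comparison 90% and 80% were recovered (9.1% false). The false share was above the threshold of 0.05 in both. Far fewer genes were changed there than were called in the data, so these rates need not hold for the data. The members and lists were chosen with earlier results of these data known. Named genes were all members, up to 3 called genes with the farthest fold change per list, and all measured genes of lists of 8 or fewer; some that the rule names are not reported here. GC came from GENCODE M21 transcripts (99.9% of genes tested). Promoters came from RefSeq on GRCm38.p6. Total counts per library were 6475099 to 8797750 in quiescent, 8331999 to 8992709 in proliferating, 9226080 to 10320736 in control and 9053124 to 9490756 in KO cells. Intervals and floors cover counting error only, since reads carried no molecular identifiers.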

Additional observations from a re-analysis of the deposited data

How the results depend on the processing

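Member directions held under every setting run, except that Egln3 in the KO comparison, which did not pass, turned to 0.04 without GFP control replicate 1 and 0.06 without KO replicate 3 (-0.16 to 0.06 over the libraries left out). Apart from Bnip3, every KO call of a member held in all 16 alternatives, as in Adm (0.28 to 0.38, adjusted p = 0.00232 to 0.023 with edgeR, DESeq2 and limma), and Bnip3 ran from 0.40 to 0.67. In the quiescent comparison Hif1a lay between 0.52 and 1.0 and Adm between -6.47 and -4.10, the last on log2(TPM + 1), where the pseudocount bounds the fall. Library size alone moved the median of all genes tested in that comparison by -0.14 (log2) and the calls from 3664 higher and 4346 lower (45.7% higher) to 2823 higher and 5219 lower (35.1% higher); under it 8 members were called. Libraries of the same replicate number showed no positive correlation (-0.183, -0.33 and -0.008 in the quiescent comparison, and 0, -0.058 and -0.009 in the KO comparison). These are correlations of deviations from group means of 3 or 4 libraries, so they cannot exclude a shared culture or animal. With a replicate block, 6530 genes were called in the quiescent comparison, against 7206 in the same 6 libraries without it, and 6252 in the KO comparison against 6509; 9 and 6 members were called. Of the 5 genes most like Adm, 2 were shared on log2(TPM + 1); the cause was not tested. Counts were low for Ankrd37, for Egln3 and Ndrg1 after virus, and for Adm in quiescent cells.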
